A study of Mus musculus with 18 samples.

Results

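The 39 genes described here are induced by type I or type II interferon: sensors of foreign nucleic acid, transcription factors, the ISG15 system, the IFIT and OAS families, other antiviral proteins, GTPases, antigen processing genes and secreted proteins. They were chosen as a list of symbols, without the Ifitm family, and all 39 were found among the 22787 genes of the deposited table. The rule itself uses no measured value. The table holds RNA levels of 18 mouse samples, measured by low-input SmartSeq2 sequencing, in a study of how the kinase complex mTORC1 acts in the differentiation of myeloid cells. Of these, 12 samples are granulocyte-monocyte progenitors (GMPs), marrow cells that give rise to neutrophils and monocytes. They form 4 groups of 3 libraries: Raptor KO with its control Raptor fl/fl, and Tsc2 KO with its control Tsc2 fl/fl. Raptor is a subunit that mTORC1 needs, and Tsc2 is part of the complex that restrains mTORC1. In an fl/fl mouse both copies of the gene carry recombination sites and the gene is intact. The Cre that made the knockouts, the strain and the age of the mice are not given in the sources used here. Each GMP sample was 10000 cells sorted from stained bone marrow as c-kit+ FcgRII/III+ cells without Sca-1, CD127 or CD135 and with little CD34 and Ly6C. The other 6 samples are DR-ER-Hoxb8 cells, an immortalized myeloid progenitor line that stays immature while estradiol keeps its Hoxb8 active. All 6 were differentiated for 3 days without estradiol in medium with stem cell factor, in DMSO, in rapamycin at 100 nM, which inhibits mTORC1, or in SL0101-01 at 10 nM, which inhibits RSK kinases, with 2 libraries each.

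Cells answer virus and other stimuli by secreting interferons, which bind receptors on the same and other cells. The receptors activate JAK kinases and STAT factors. Type I interferon acts on its target genes through interferon-stimulated response elements in their promoters, and interferon gamma through gamma-activated sites. The induced genes sense viral RNA, block viral translation, degrade RNA, present antigen and recruit other leukocytes. In the marrow, interferons are known to act on stem and progenitor cells, which also express part of these genes without infection.

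Values are in signal units: the number of fragments of a gene, scaled by 1 factor for each library and not by gene length. Depth was 2.48 to 3.52 M fragments per GMP library and 2.31 to 3.30 M per Hoxb8 library. Whether replicates were separate mice or cultures is not stated in the labels, so p-values measure only the spread between these libraries. In the knockouts the gene Tsc2 was 248 ± 18.0 in Tsc2 fl/fl against 95.1 ± 10.8 in Tsc2 KO (SD, n = 3 each; limma adjusted p = 1.69e-04). Rptor, the gene of Raptor, was 84.5 ± 5.11 in Raptor fl/fl against 63.3 ± 5.61 in Raptor KO (adjusted p = 0.377). The table counts whole genes, so reads of exons outside a deleted part are included. The 12 GMP markers, among them the granule enzymes Mpo and Elane, were present in all 12 GMP libraries. Tsc2 fl/fl replicate 2 stood apart from its group: its summed GMP markers were the lowest of the group, and Fcgr3, a gene of the receptor used in the sort, was 311, 44.0 and 279 in its 3 libraries and 247, 64.6 and 79.3 in Tsc2 KO. Tsc2 fl/fl replicate 2 and Tsc2 KO replicate 2 came from males by the sum of 4 Y-linked genes (317.7 to 384.9, against at most 0.8 in the other 10 GMP libraries). All 6 Hoxb8 libraries were male.

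Promoter windows from RefSeq (build GRCm38.p6, 250 bases before to 50 bases after the start of the gene) were found for 31 of the 39 genes, 5 of them with several windows. No window was matched for Dhx58, Zbp1, Usp18, Oas2, Rtp4, Parp14, Ifi27l2a and Iigp1. Of the 31 genes, 16 held a match to the core of the interferon-stimulated response element on either strand, read as GAAA, any 2 bases and GAAA again, which is 51.6% of them. The same letters stood in 3.99% of all 27025 genes with a window. A match to the gamma-activated site, read as TTC, any 3 bases and GAA, stood in 8 of the 31 (25.8%) and in 9.55% of all genes. The windows printed here with a response element match hold no gamma-activated site match, so no overlap was possible in them. In Bst2, whose window is not printed, matches of both kinds overlapped. The 5 windows below are those of Isg15, which gives the response its best known protein, and of members with a match that passed a test below. They are printed with the matched letters in capitals, 5′ to 3′ on the strand of the gene. B2m also passed and holds a match, but is not printed. Irf7, Isg20, Samd9l and Psmb8 passed a test too, and their windows hold no response element match. The printed windows were thus chosen by their matches and are no sample of the members that passed. The first match of Isg15 begins 78 bases before the start of the gene, that of Gbp3 45, that of Irgm1 30 and that of Cxcl10 213, while that of Ddx58 lies just after the start. Gbp3 has another window from another start (chr3:142560106-142560405), without a match to either set of letters, so its distance holds for the printed window only.
Isg15 (chr4:156200769-156201068, minus strand): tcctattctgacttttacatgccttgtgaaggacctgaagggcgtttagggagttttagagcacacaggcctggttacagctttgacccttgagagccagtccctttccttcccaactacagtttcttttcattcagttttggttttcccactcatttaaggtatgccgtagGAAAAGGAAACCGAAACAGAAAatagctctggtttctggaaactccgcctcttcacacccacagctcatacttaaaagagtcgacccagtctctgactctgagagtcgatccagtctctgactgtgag
Ddx58 (chr4:40239776-40240075, minus strand): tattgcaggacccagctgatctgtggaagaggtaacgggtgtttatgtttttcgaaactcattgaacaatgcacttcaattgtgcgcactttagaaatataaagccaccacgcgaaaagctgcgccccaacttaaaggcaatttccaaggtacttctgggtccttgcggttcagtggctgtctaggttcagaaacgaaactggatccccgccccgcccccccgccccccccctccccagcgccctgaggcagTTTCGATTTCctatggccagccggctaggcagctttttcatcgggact
Gbp3 (chr3:142559794-142560093, plus strand): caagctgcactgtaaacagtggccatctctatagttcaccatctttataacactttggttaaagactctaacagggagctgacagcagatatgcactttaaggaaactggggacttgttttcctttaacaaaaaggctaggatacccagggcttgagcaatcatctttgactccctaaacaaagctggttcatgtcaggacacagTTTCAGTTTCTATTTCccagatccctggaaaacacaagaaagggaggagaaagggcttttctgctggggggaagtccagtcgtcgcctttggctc
Irgm1 (chr11:48871371-48871670, minus strand): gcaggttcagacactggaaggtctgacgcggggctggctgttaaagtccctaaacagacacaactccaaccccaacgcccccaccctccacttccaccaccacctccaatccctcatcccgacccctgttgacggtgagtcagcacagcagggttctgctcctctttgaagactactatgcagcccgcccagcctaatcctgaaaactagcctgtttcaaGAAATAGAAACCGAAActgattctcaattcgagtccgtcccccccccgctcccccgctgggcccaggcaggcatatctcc
Cxcl10 (chr5:92348840-92349139, minus strand): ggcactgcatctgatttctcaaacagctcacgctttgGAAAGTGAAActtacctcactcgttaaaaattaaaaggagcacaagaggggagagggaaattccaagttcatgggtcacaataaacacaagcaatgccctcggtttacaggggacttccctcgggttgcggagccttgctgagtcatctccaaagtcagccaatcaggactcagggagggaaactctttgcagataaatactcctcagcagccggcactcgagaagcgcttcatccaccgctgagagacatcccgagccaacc

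Psmb9 and Tap1 stand head to head on chromosome 17, so that their windows are nearly the same stretch read from opposite strands. The Tap1 window is chr17:34187306-34187605 on the plus strand. The Psmb9 window is shown because both genes passed the test below in the same direction. It holds no match to either set of letters, which says only that these letters are not in this window.
Psmb9 (chr17:34187281-34187580, minus strand): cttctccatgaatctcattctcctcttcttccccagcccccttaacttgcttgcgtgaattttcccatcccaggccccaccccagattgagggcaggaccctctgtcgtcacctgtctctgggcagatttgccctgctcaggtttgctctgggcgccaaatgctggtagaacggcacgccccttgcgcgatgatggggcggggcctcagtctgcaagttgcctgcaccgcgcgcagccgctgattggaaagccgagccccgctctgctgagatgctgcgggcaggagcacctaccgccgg

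Of the 39 genes, 38 reached the level required for a test in GMPs and 34 in Hoxb8 cells, and no label names an added interferon. The plot of levels by library shows this for each gene, ordered by role. Of the 39 genes, 8 were higher in every GMP library than in every Hoxb8 library: Irf9, Oasl2, Bst2, Isg20, Xaf1, Gbp3, Gbp7 and Lgals3bp. In 3 genes, Stat2, Samd9l and Cxcl10, every Hoxb8 library was above every GMP library, and the other 28 overlapped. These are levels in a primary, mostly female cell population and in a male cell line, and no test was made between them. The share of all genes that lay apart in this way was not computed. Whether the members lie apart more often than other genes is therefore not known, here and in the levels by role below.

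**Figure D1:**
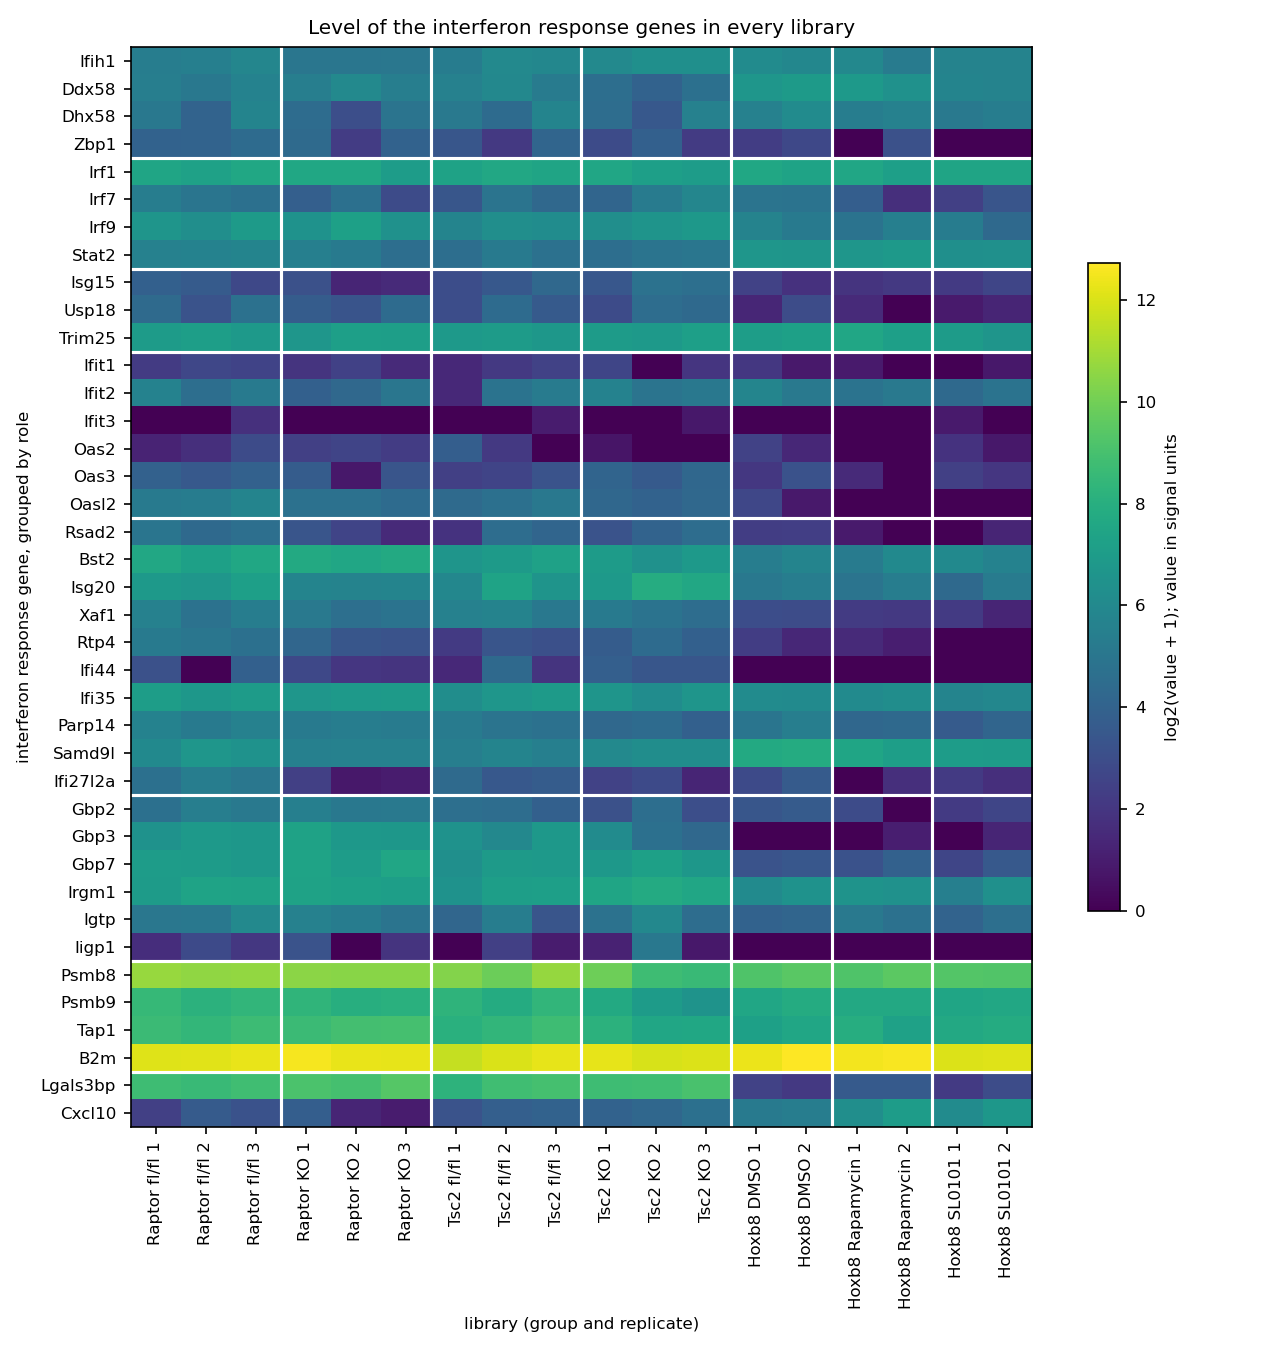
Level of each of the 39 interferon response genes (rows, grouped by role) in each of the 18 libraries (columns, grouped by title), as log2 of the value plus 1, with white lines between roles and groups. Gbp3, Gbp7 and Lgals3bp are lighter, which is higher, in the 12 GMP libraries than in the 6 Hoxb8 libraries, and Cxcl10 and Samd9l show the opposite order.

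Among the sensors, Ifih1 (MDA5), which binds long double-stranded RNA, had a lowest, median and highest value of 30.5, 49.8 and 80.7 over the 12 GMP libraries and of 38.1, 55.2 and 68.7 over the 6 Hoxb8 libraries. Ddx58 (RIG-I), the sensor of RNA ends, had 15.1, 42.1 and 62.4 in GMPs and 50.8, 93.1 and 122 in Hoxb8 cells. The ranges of both sensors overlapped between the cell systems. Irf1, a transcription factor that interferon gamma induces, had 129, 176 and 196 in GMPs and 143, 171 and 187 in Hoxb8 cells. Irf9, a DNA-binding factor of the type I response, had 52.0, 87.1 and 147 and 19.7, 38.0 and 49.8, without overlap.

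In the ISG15 system, Trim25, a ligase that activates RIG-I, had 102, 125 and 145 in GMPs and 97.7, 140.1 and 185 in Hoxb8 cells. Usp18, which removes Isg15 from proteins and restrains the type I receptor, had 6.63, 15.6 and 26.0 and 0, 1.55 and 6.64. Trim25 and Usp18 both overlapped between the systems. Of the IFIT and OAS families, Ifit2, an inhibitor of translation, had 1.73, 29.9 and 49.7 and 19.2, 31.0 and 53.7. Oasl2, a relative of the enzymes that make 2-5A, had 15.1, 25.0 and 52.7 in GMPs and was at 0 in 4 of the 6 Hoxb8 libraries. Ifit2 overlapped between the systems and Oasl2 did not. Bst2 (tetherin), which holds budding virus at the cell surface, had 84.6, 154 and 210.1 in GMPs and 37.6, 50.4 and 64.9 in Hoxb8 cells. Samd9l, an antiviral factor known for restraining the growth of blood progenitors, had 42.5, 58.1 and 101 and 127, 158 and 223. Bst2 was the higher in GMPs and Samd9l in Hoxb8 cells, both without overlap.

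Irgm1, a GTPase that controls the other immunity-related GTPases on membranes, had 88.4, 154 and 220.1 in GMPs and 43.7, 83.9 and 90.7 in Hoxb8 cells. Gbp7, a guanylate-binding protein, had 79.8, 123 and 185 and 5.25, 9.33 and 14.6. Irgm1 overlapped between the systems and Gbp7 did not. Psmb8, the catalytic immunoproteasome subunit also known as LMP7, had 398, 1406 and 1741 and 594, 624 and 721. B2m, the light chain of MHC class I, had 3110.0, 4705 and 6070.1 and 4294, 5470.0 and 6763. Psmb8 and B2m overlapped as well. Lgals3bp, a secreted glycoprotein, had 299, 457 and 649 in GMPs against 3.32, 5.78 and 11.2 in Hoxb8 cells. Cxcl10, a chemokine that attracts T cells, had 0.94, 12.2 and 25.2 against 35.6, 73.9 and 129. These secreted proteins thus stood in opposite order, both without overlap.

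The genes of the interferons themselves were near the limit of detection. Of 18 listed interferon genes, 15 were at 0 in all 18 libraries, Ifnb1 among them. Ifnk stood at 2.34 in Raptor fl/fl replicate 2 and at 1.33 in Tsc2 KO replicate 1, Ifnab at 1.33 in Tsc2 KO replicate 1, and Ifng at 1.62 in Raptor fl/fl replicate 3. Every other value was 0. A count of 0 in a library allows up to 3 fragments, for counting error only.

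The first comparison asks how the interferon response genes stood in GMPs labelled Raptor KO against Raptor fl/fl. In this comparison 1 member passed the test: Ifi27l2a, a small interferon-induced membrane protein, was lower in Raptor KO. Ifi27l2a had values of 25.3, 40.5 and 32.5 in Raptor fl/fl against 4.24, 0.743 and 0.94 in Raptor KO. All 3 knockout libraries lay below the 3 control libraries. The means were 32.7 ± 7.62 and 1.98 ± 1.97 (SD, n = 3 each), a log2 fold change of -3.67 (SE 0.57, limma adjusted p = 0.00142, Benjamini-Hochberg over 13237 genes). Values of 0.743 and 0.94 are 1 fragment each, so the size of this change depends on the value added before taking logs: it was -2.45 with 5 added and -4.00 with 0.5. Over all alternatives it ran from -4.17 to -2.45. All fold changes here are on the scale of log2 of the value plus 1, which understates changes of low genes. Of the 38 members tested, 1 was called lower and 0 higher, against 2.42% of all tested genes called lower and 1.53% called higher, so the count of calls is near the background. Ifit3 did not reach the value of 1 in 3 libraries that the test required. At an unadjusted p under 0.05, 9 members were lower and 1 higher, and limma with voom weights on the recovered fragments also called Ifi27l2a alone. Of all 13237 tested genes, 2510 had an unadjusted p under 0.05 in this comparison. The call of Ifi27l2a held with each of the 6 libraries left out.

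The members without a call lay mostly below 0. Of the 38 log2 fold changes, 28 were negative and 10 positive, with a median of -0.27 against 0.03 over all genes tested. In 10 members (26.3%) the highest Raptor KO library was below the lowest control library, and in 1 (2.63%) every one was above, against 13.1% and 13.3% of all tested genes. The 10 were Ifih1, Irf7, Stat2, Oasl2, Rsad2, Isg20, Rtp4, Samd9l, Ifi27l2a and Psmb8, and the 1 above was Lgals3bp. They were named after their values were seen.

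Of the 10, 4 had an adjusted p under 0.1 without passing. Isg20, an exonuclease that degrades viral RNA, had 114, 102 and 145 in Raptor fl/fl against 52.4, 51.3 and 51.7 in Raptor KO, a log2 fold change of -1.19 (SE 0.32, adjusted p = 0.0502). Samd9l had 65.7, 101 and 87.6 and 46.0, 47.6 and 47.9 (-0.81, adjusted p = 0.0597). Rsad2 (viperin), which makes a chain-terminating nucleotide, had 30.3, 19.5 and 24.3 and 9.20, 5.20 and 1.88 (-2.16, adjusted p = 0.0629). In each of these 3 genes the knockout libraries lay below the controls. Rtp4, an interferon-induced chaperone of membrane receptors, had 36.8, 31.1 and 25.2 and 17.7, 9.66 and 8.46 (-1.36, adjusted p = 0.0988). When the fit held only the 6 Raptor libraries, 6 members passed: Ifi27l2a, Isg20, Rsad2, Rtp4 and Samd9l as lower and Lgals3bp as higher. In that fit 546 of all 12442 tested genes were called higher and 703 lower. The main fit called 202 and 320 of 13237, so calls rose over the whole table.

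By role, 9 of the 10 other antiviral proteins were below 0 in Raptor KO (median log2 fold change -0.60), as were 4 of the 5 tested IFIT and OAS genes (median -0.75). Also below 0 were 3 of the 4 sensors and all 3 genes of the ISG15 system, but Trim25 was at -0.01, which is no change. Of all 13237 tested genes, 6241 were below 0. The GTPases and antigen processing genes had medians of 0.07 and -0.02. The 4 antigen processing genes had log2 fold changes of -0.21 to 0.24, and the 6 GTPases of -0.47 to 0.39, none of them past the test. B2m was 4457, 4584 and 5054 in Raptor fl/fl against 6070.1, 4972 and 4922 in Raptor KO, with overlap. Irgm1 had 128, 165 and 159 and 159, 149 and 139, a log2 fold change of -0.01. The 95% interval of that change ran from -0.42 to 0.41.

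Markers of other cell types differed between the same libraries. Of 10 B cell markers 9 were called lower in Raptor KO, and their summed level was 812 to 1102 in Raptor fl/fl against 108 to 149 in Raptor KO. None was at 0 in Raptor fl/fl, and Cd22, Ms4a1 and Pax5 were each at 0 in 2 of the 3 Raptor KO libraries. Of 10 erythroid markers 5 were called lower (sum 3762 to 4204 and 1694 to 2243), with none at 0. Also called lower were 3 of 10 neutrophil markers (sum 703 to 1961 and 429 to 521) and 3 of 8 megakaryocyte markers (sum 1097 to 1309 and 435 to 478). Dendritic cell markers summed to 1539 to 2220.1 and 854 to 988 (1 of 10, Flt3, called higher), and T or NK cell markers to 1425 to 1506 and 1086 to 1222 (2 of 9 tested called lower, Gzma at 0 in all Raptor KO libraries). The summed GMP markers were 72160.3 to 83162 and 65644 to 68405. In bulk samples, fewer cells of a type and less RNA per cell cannot be told apart. The part of these markers in the lower values of interferon response genes was not tested.

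In Tsc2 KO 3 of the 4 antigen processing genes fell, and single members of other roles moved both ways. Of the 38 members tested, 5 were called lower and 1 higher, against 7.12% and 5.26% of all tested genes. The 5 were Psmb8, Psmb9, Tap1, Ddx58 and Gbp3, and the 1 was Irgm1. At an unadjusted p under 0.05, 8 were lower and 4 higher, beside 3602 of all 13237 tested genes in either direction. Over all 38 the median log2 fold change was 0.16, with 20 above 0 and 18 below, against a median of -0.02 over all genes.

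The 4 antigen processing genes had a median log2 fold change of -0.84. Psmb9, the immunoproteasome subunit LMP2, had 306, 223 and 325 in Tsc2 fl/fl against 213, 127 and 91.9 in Tsc2 KO. The highest knockout library lay just under the lowest control library. The log2 fold change was -1.05 (SE 0.24, limma adjusted p = 0.00925). Psmb8 had 1327, 936 and 1684 in Tsc2 fl/fl against 956, 431 and 398 in Tsc2 KO, a log2 fold change of -1.22 (SE 0.30, adjusted p = 0.0248). Its groups overlapped, with Tsc2 fl/fl replicate 2 below Tsc2 KO replicate 1. Tap1, a subunit of the pump that carries peptides to MHC class I, had 264, 335 and 429 and 289, 184 and 192, also with overlap (-0.63, adjusted p = 0.0338). B2m did not pass, with 3110.0, 4122 and 4826 and 4831, 4014 and 4313 (log2 fold change 0.15, 95% interval -0.14 to 0.43).

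Ddx58 was the sensor that changed. It had 46.8, 60.1 and 37.6 in Tsc2 fl/fl against 23.2, 15.1 and 25.2 in Tsc2 KO, without overlap, a log2 fold change of -1.15 (SE 0.31, adjusted p = 0.0212). Ifih1, which senses RNA beside it, had 39.0, 61.8 and 58.3 and 63.0, 79.1 and 80.7, with every knockout library above every control (0.50, adjusted p = 0.236). The 2 RNA sensors thus had opposite signs, and the change of Ifih1 did not pass. Dhx58 (LGP2), which tunes both sensors, and Zbp1, which senses left-handed nucleic acid, had overlapping groups.

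The GTPases divided as well. Gbp3, a guanylate-binding protein, had 90.2, 60.9 and 109 in Tsc2 fl/fl against 69.6, 24.8 and 18.5 in Tsc2 KO, with Tsc2 KO replicate 1 inside the control range (-1.38, SE 0.37, adjusted p = 0.0248). Irgm1 had 88.4, 139.6 and 147 and 179, 220.1 and 183, with all knockout libraries above the controls (0.66, SE 0.20, adjusted p = 0.0338). Gbp3 and Irgm1 both hold response element matches in the windows printed above, which were chosen for holding them. Iigp1 showed how uneven single libraries were: it had 0, 4.23 and 0.941 and 1.33, 33.7 and 0.741, the highest value being that of Tsc2 KO replicate 2, one of the male libraries.

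**Figure D2:**
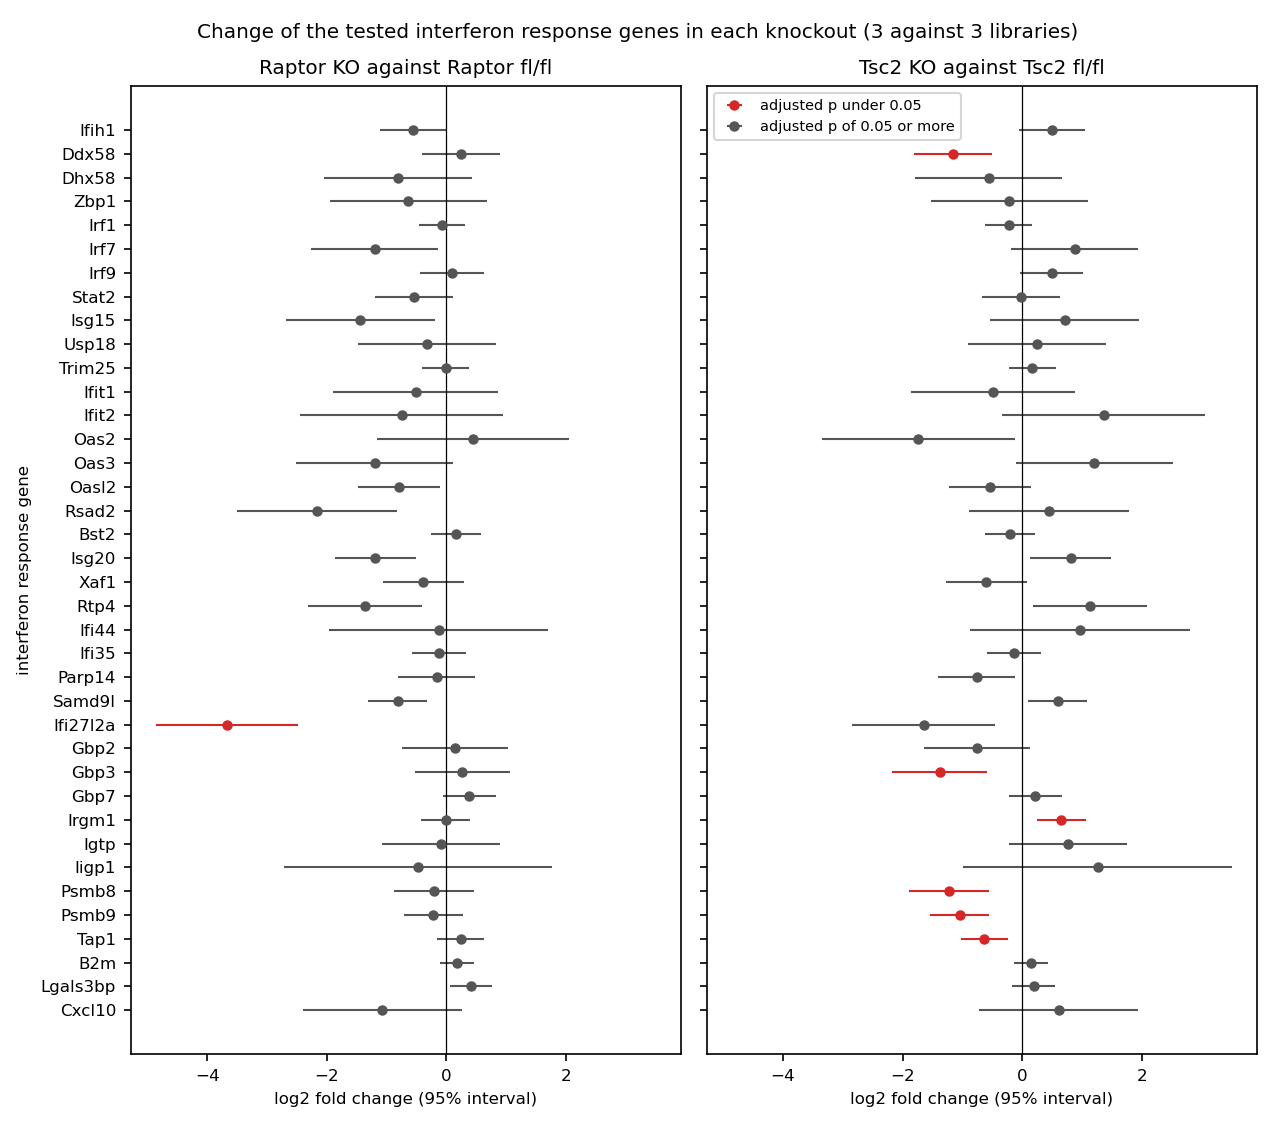
Log2 fold change of the 38 tested members (rows, in order of role) in Raptor KO (left) and in Tsc2 KO (right), each against its fl/fl control, with 3 libraries per group. Points are limma estimates, bars are 95% intervals, and red marks an adjusted p under 0.05: Ifi27l2a alone on the left, and Ddx58, Gbp3, Irgm1, Psmb8, Psmb9 and Tap1 on the right.

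In 7 of the 38 members (18.4%) every Tsc2 KO library was above every Tsc2 fl/fl library, and in 5 (13.2%) every one was below, against 14.6% and 13.3% of all tested genes, so these counts lie near the background. The 7 were Ifih1, Irf9, Oas3, Rtp4, Samd9l, Irgm1 and Cxcl10, and the 5 were Ddx58, Oasl2, Parp14, Ifi27l2a and Psmb9. Ifi27l2a had 19.9, 10.2 and 12.2 in Tsc2 fl/fl against 4.64, 6.19 and 1.48 in Tsc2 KO, the same direction as in Raptor KO, and did not pass here (-1.65, adjusted p = 0.0643). Oas3, which makes 2-5A upon binding double-stranded RNA, had 4.34, 5.08 and 8.46 and 15.9, 11.0 and 17.8 (1.21, adjusted p = 0.222). Parp14, an ADP-ribosyltransferase, had 38.1, 28.8 and 25.4 and 18.6, 20.6 and 14.1 (-0.76, adjusted p = 0.117).

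The count of 6 calls in Tsc2 KO depended on single libraries. It was 2 without Tsc2 fl/fl replicate 1, 1 without Tsc2 KO replicate 2 (Psmb9) and 1 without Tsc2 KO replicate 3 (Ddx58), and 6 without Tsc2 fl/fl replicate 2, the control with the fewest GMP markers. Those 6 were not the same genes: Ddx58 was lost (adjusted p = 0.0597) and Isg20 gained. With both male libraries left out, 3 passed: Psmb8 and Psmb9 as lower and Isg20 as higher. With only the 6 Tsc2 libraries in the fit, limma called 0, with 6 members lower and 4 higher at an unadjusted p under 0.05. That fit called 233 of all 12097 tested genes higher and 238 lower, against 696 and 942 of 13237 in the main fit. Summed GMP markers were 37733 to 84256 in Tsc2 fl/fl against 8899 to 41421 in Tsc2 KO, with 5 of 12 called lower and none at 0. Their lowest control value was in replicate 2 and their highest knockout value in replicate 1. B cell markers summed to 346 to 561 and 20.7 to 76.2 (8 of 10 called lower), and Pax5 was at 0 in all Tsc2 KO libraries. Erythroid markers summed to 2866 to 10148 and 12079.8 to 24423 (5 of 10 called higher, none at 0), and macrophage markers to 19.5 to 81.8 and 196 to 268 (3 of 8 tested called higher, Marco at 0 in both groups and Mertk in Tsc2 fl/fl). Megakaryocyte markers summed to 392 to 800.3 and 164 to 182 (6 of 8 called lower). Dendritic cell markers summed to 792 to 2299 and 293 to 683 (3 of 10 called lower and 1 higher, Cd209a at 0 in both groups), and T or NK cell markers to 905 to 1315 and 224 to 808 (3 of 9 tested called lower, Cd3e at 0 in both groups). The part of these markers in the changes of interferon response genes was not tested.

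The next comparison asks whether the effect of Raptor KO differed from that of Tsc2 KO, as an interaction term over the 12 GMP libraries. Of 38 members, 2 had a higher and 3 a lower change in the Raptor line than in the Tsc2 line, against 5.99% and 6.44% of all tested genes. The 3 were Isg20, Rtp4 and Samd9l, whose levels were lower in Raptor KO and higher in Tsc2 KO, and the 2 were Ddx58 and Tap1, which were lower in Tsc2 KO. The plot of the called members by library shows all 4 groups side by side. The median difference over the 38 was -0.33, against 0.08 over all genes.

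Isg20 had 58.1, 168 and 95.9 in Tsc2 fl/fl against 111, 235 and 197 in Tsc2 KO, next to the Raptor values given above. The log2 fold changes were -1.19 and 0.81, neither of which passed alone, and their difference was -2.00 (SE 0.46, limma adjusted p = 0.0109). The 3 Raptor KO libraries of Isg20 were the lowest of all 12. Samd9l had 42.5, 53.3 and 44.2 in Tsc2 fl/fl against 63.0, 74.3 and 75.6 in Tsc2 KO, so its groups did not overlap in either line and lay in opposite order, although neither change passed alone. The difference of its changes was -1.41 (SE 0.33, adjusted p = 0.0114). Rtp4 had 3.47, 9.31 and 7.52 and 11.9, 20.6 and 14.1, with a difference of -2.50 (SE 0.64, adjusted p = 0.0176). For Rtp4 and Samd9l the difference comes with unequal controls, since every Tsc2 fl/fl library of both genes lay below every Raptor fl/fl library.

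Ddx58 had 41.8, 32.7 and 48.7 in Raptor fl/fl against 42.4, 62.4 and 42.3 in Raptor KO, with overlap, and the difference of its changes was 1.40 (SE 0.44, adjusted p = 0.0448). Tap1 had 400.4, 346 and 422 and 401, 484 and 503, with a difference of 0.88 (SE 0.27, adjusted p = 0.0382). Ddx58 and Tap1 fell in Tsc2 KO, while their Raptor groups overlapped. Psmb8 (1.01, adjusted p = 0.152), Psmb9 (0.83, adjusted p = 0.116) and Gbp3 (1.65, adjusted p = 0.0523) did not pass the test of the difference. Their changes in Tsc2 KO are therefore not shown to differ from those in Raptor KO.

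**Figure D3:**
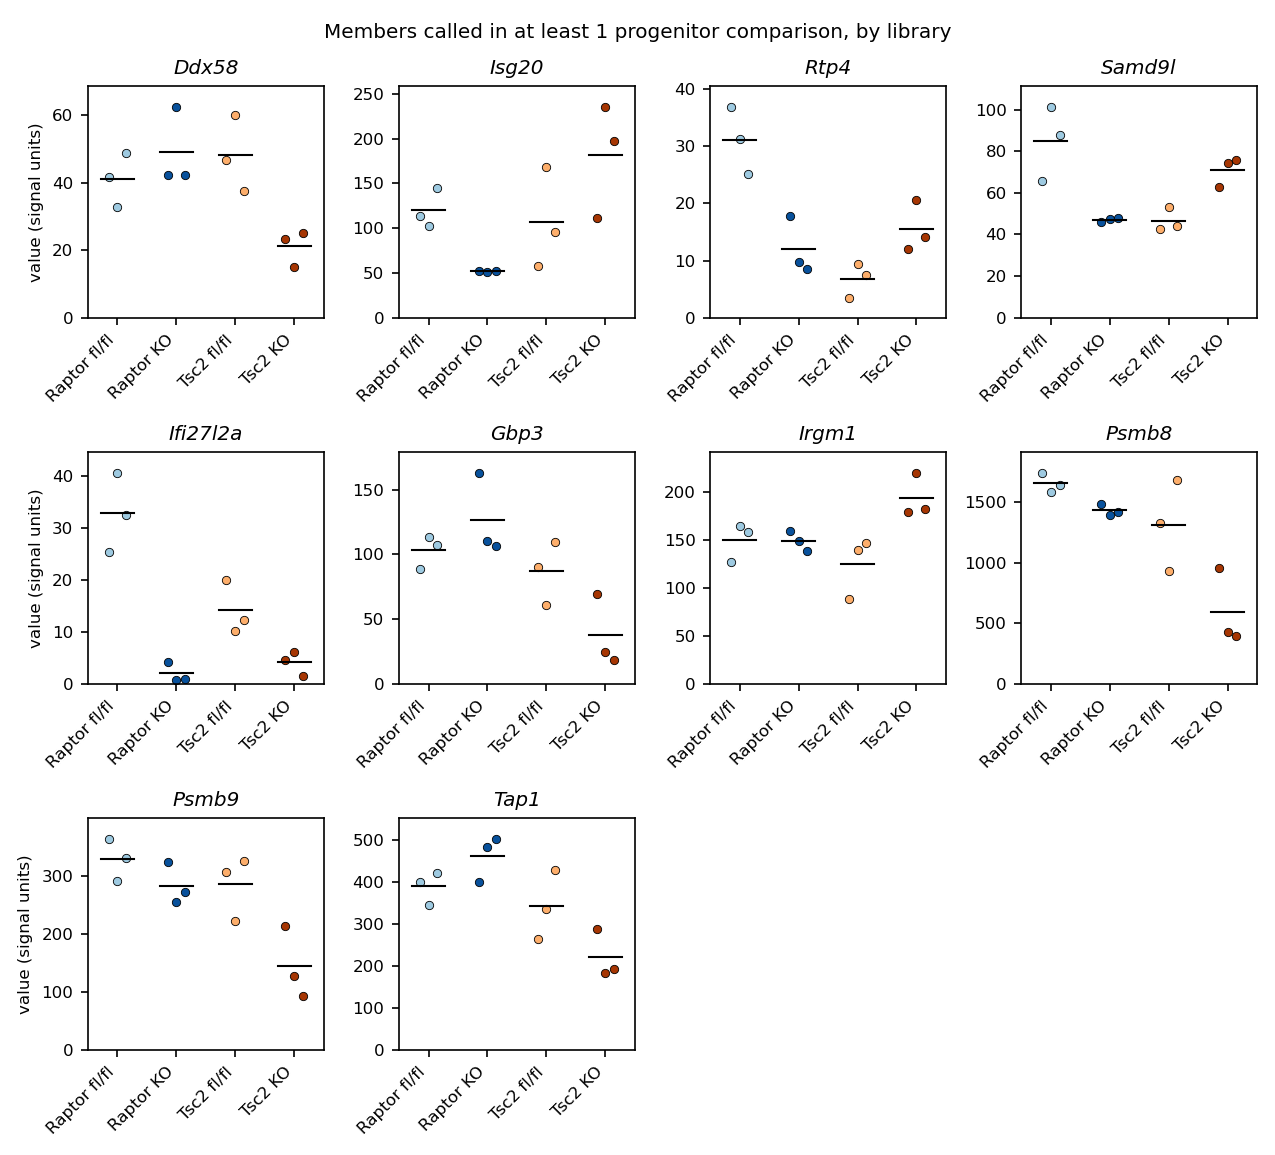
Values of the 10 members called in at least 1 comparison of GMPs, in signal units on an axis from 0, for each library (points) of the 4 groups, with the group mean as a line. Isg20, Rtp4 and Samd9l are low in Raptor KO and high in Tsc2 KO relative to their own controls, while Psmb8, Psmb9, Gbp3 and Ddx58 are low in Tsc2 KO.

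The calls of Isg20 and Samd9l held with any of the 12 libraries left out, and that of Rtp4 in all but 1 case (adjusted p = 0.0551 without Tsc2 KO replicate 2). That of Ddx58 held in 2 of the 12 cases and that of Tap1 in 4 of 12, with adjusted p-values of up to 0.12 and 0.102. The count of 5 was 2 without Tsc2 KO replicate 2, 3 without any 1 Raptor fl/fl library, Raptor KO replicate 3 or Tsc2 KO replicate 3, 8 without Raptor KO replicate 1 and 12 without Tsc2 KO replicate 1. Over all genes, 441 were called higher and 456 lower without Tsc2 KO replicate 2, and 1401 and 1118 without Tsc2 KO replicate 1. Without Raptor KO replicate 1 they were 587 and 772, against 793 and 853 with all libraries.

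The fl/fl controls of both lines were compared because the interaction rests on them. Of 38 members 1 was called lower in Tsc2 fl/fl and 0 higher, against 0.121% and 0.483% of all tested genes. This was Rtp4, with 3.47, 9.31 and 7.52 in Tsc2 fl/fl against 36.8, 31.1 and 25.2 in Raptor fl/fl (log2 fold change -2.11, SE 0.46, limma adjusted p = 0.0367). The call was lost without any 1 of the 6 control libraries, at adjusted p-values up to 0.167. In 7 members (18.4%) the highest Tsc2 fl/fl library was below the lowest Raptor fl/fl library, and in 0 every one was above, against 9.25% and 8.18% of all tested genes. The 7 were Stat2, Oas3, Oasl2, Rtp4, Samd9l, Ifi27l2a and Gbp2. At an unadjusted p under 0.05, limma found 7 lower and 0 higher, and with voom weights 6 lower and 0 higher and no call. Of all 13237 tested genes, limma found 1774 at this level. Ifi27l2a, for one, was 25.3, 40.5 and 32.5 in Raptor fl/fl and 19.9, 10.2 and 12.2 in Tsc2 fl/fl.

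Other genes of the pathway were taken from 3 lists, whose counts stand beside the shares of all tested genes given above for each comparison. Of 17 receptors, kinases and STAT factors, 2 rose in Raptor KO: Socs3, a feedback inhibitor of JAK kinases, from 12.3 ± 0.937 to 58.5 ± 7.82 (log2 fold change 2.16, limma adjusted p = 0.00444), and Il10rb, a chain shared by the interleukin-10 and interferon lambda receptors, from 93.8 ± 12.2 to 155 ± 2.92 (0.72, adjusted p = 0.0459). In Tsc2 KO, Socs3 fell from 21.1 ± 7.95 to 5.77 ± 1.61 (-1.67, adjusted p = 0.01) and Stat3 from 214 ± 21.4 to 94.9 ± 27.3 (-1.20, adjusted p = 0.00121). The kinase Jak1 rose from 404 ± 82.6 to 569.8 ± 55.0 (0.51, adjusted p = 0.0469; SD, n = 3 each throughout). The Socs3 change differed between the lines by 3.83 (adjusted p = 6.25e-04), and 3 genes of this list were called higher and 1 lower in that test. The 3 were Socs3, Socs1 (3.30) and Stat3 (1.83), and the 1 was Jak1 (-0.94).

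Of 17 genes that sense nucleic acid upstream of interferon, 0 passed in Raptor KO (3 at an unadjusted p under 0.05). In Tsc2 KO 3 fell: Tmem173 (STING), the adaptor of DNA sensing, from 181 ± 69.1 to 55.6 ± 44.4 (log2 fold change -1.87, adjusted p = 0.0191), Traf3 (-1.24, adjusted p = 0.0157) and Aim2 (-0.96, adjusted p = 0.0418). These 3 and Mb21d1 (cGAS) passed the test of the difference between the lines, as higher in the Raptor line (2.11, 1.53, 1.49 and 1.44). Of 62 tested genes in a list of other interferon-induced genes, 3 fell and 0 rose in Raptor KO: Tdrd7 (-2.61), Cmpk2 (-1.06), a kinase encoded beside Rsad2, and the GTPase Ifi47 (-0.60, adjusted p = 0.0285, 0.0312 and 0.0338). At an unadjusted p under 0.05, 17 of the 62 differed. In Tsc2 KO 7 of the 62 fell and 3 rose. The 4 with the largest changes were Trim21 (1.69), Ifi203 (-1.37), Ifi30 (1.12) and Trim30a (-1.08). Among those that fell were H2-K1 (-0.42), a heavy chain of MHC class I, and Psmb10 (-0.60), the third immunoproteasome subunit, both named after their values were seen. The list also holds Tap2, Tapbp, H2-D1, Psme1, Psme2 and Nlrc5, whose changes in Tsc2 KO are not given here. No change of antigen processing genes as a set is therefore read from H2-K1 and Psmb10. In the test of the difference 7 of the 62 were higher and 5 lower, the 4 largest being Gbp5 (2.57), Ube2l6 (-2.25), Cd274 (1.86) and Cmpk2 (-1.43). Between the fl/fl controls limma called 0 genes of the 3 lists, with 1, 1 and 6 at an unadjusted p under 0.05.

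In differentiating Hoxb8 cells the questions were how the interferon response genes stood in rapamycin and in SL0101 against DMSO. The inhibitor comparisons share the DMSO libraries, so their values are given side by side. Where groups lay apart or overlapped is only described below. With so few libraries a group, the share of all genes that lay apart was not computed. Of the 39 members, 34 were tested, and Ifit1, Ifit3, Oasl2, Ifi44 and Iigp1 were too low. In rapamycin 1 of 34 was called higher and 2 lower, against 5.4% and 6.35% of all 11804 tested genes. In SL0101 1 was called higher and 5 lower, against 5.09% and 5.79%. The median log2 fold change was -0.15 in rapamycin and -0.43 in SL0101, against -0.01 and -0.02 over all genes. In rapamycin 21 of the 34 were below 0 and in SL0101 27, while of all 11804 tested genes 6012 and 6114 were below 0. Because both inhibitors are set against the same DMSO libraries, equal signs in both are not independent. All 4 sensors were below 0 in both, with medians of -0.39 and -0.84.

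Cxcl10 rose in both inhibitors. It had 35.6 and 40.7 in DMSO, 77.9 and 129 in rapamycin and 70.0 and 105 in SL0101, with all 4 treated libraries above both DMSO libraries. The log2 fold change was 1.37 in rapamycin (SE 0.28, limma adjusted p = 0.0016) and 1.15 in SL0101 (adjusted p = 0.00835). Irf7, the factor that drives high type I interferon output, fell in both. It had 28.4 and 28.2 in DMSO, 12.8 and 2.24 in rapamycin and 4.37 and 9.09 in SL0101, again without overlap with DMSO. Its log2 fold change was -2.13 in rapamycin (SE 0.59, adjusted p = 0.0196) and -1.99 in SL0101 (adjusted p = 0.0322). Ifi27l2a passed in rapamycin, with 6.32 and 11.6 in DMSO and 0 and 2.24 in rapamycin (adjusted p = 0.0262). Its fitted fold change depends on the value of 1 added to levels this close to 0, so none is given. In SL0101 it had 3.50 and 2.27 and did not pass (adjusted p = 0.257).

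In addition, 4 members fell in SL0101. Ddx58 had 101 and 122 in DMSO, 52.5 and 50.8 in SL0101 and 117 and 85.1 in rapamycin. Both SL0101 libraries lay below all others, while rapamycin overlapped DMSO. The log2 fold change was -1.09 in SL0101 (SE 0.23, adjusted p = 0.0039) and -0.15 in rapamycin (adjusted p = 0.761). Samd9l had 212 and 223 in DMSO, 131 and 127 in SL0101 and 177 and 140.0 in rapamycin, with -0.75 (adjusted p = 0.00987) and -0.46 (adjusted p = 0.113). Parp14 had 30.0 and 42.3, 11.4 and 16.7 and 18.3 and 19.0 in the same order, with -1.31 (adjusted p = 0.0313) and -0.90 (adjusted p = 0.148). For Samd9l and Parp14 the rapamycin libraries were also below DMSO, without passing. B2m had 5242 and 6763, 4294 and 4381 and 5698 and 6287, with -0.46 (adjusted p = 0.0363) and 0.01 (adjusted p = 0.983).

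**Figure D4:**
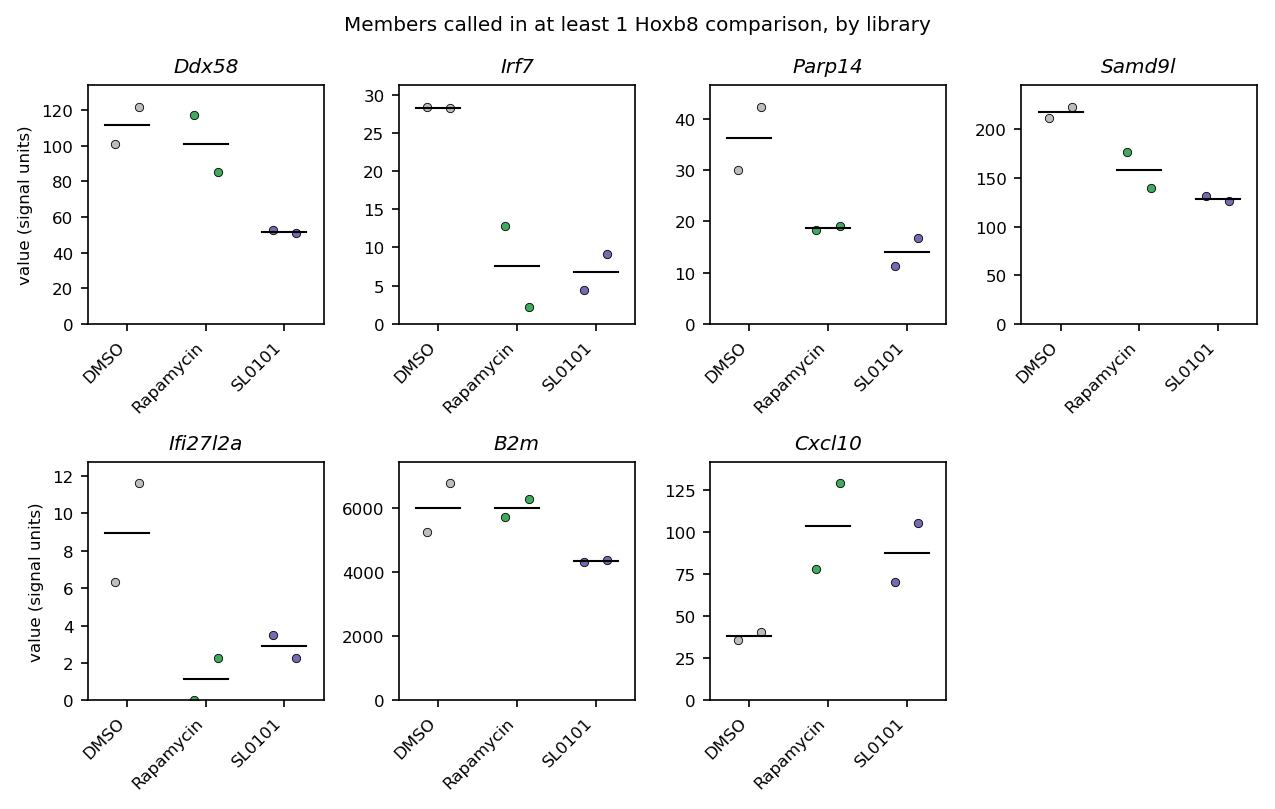
Values of the 7 members called in at least 1 comparison of Hoxb8 cells, in signal units on an axis from 0, for each of the 2 libraries (points) of DMSO, rapamycin and SL0101, with the group mean as a line. Cxcl10 is higher and Irf7 lower in both inhibitors than in DMSO, and Ddx58 and B2m are lowest in SL0101.

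Rapamycin and SL0101 were also compared with each other. Of 34 members 2 were called higher in rapamycin and 0 lower, against 4.43% and 4.44% of all tested genes. With every library scaled to the same total, the genes called over the whole table went from 523 higher and 524 lower to 440 and 699, and the 2 members remained. Ddx58 was higher in rapamycin than in SL0101 by 0.94 on the log2 scale (SE 0.23, limma adjusted p = 0.0151), and B2m by 0.46 (SE 0.14, adjusted p = 0.0398). At an unadjusted p under 0.05, 3 members were higher and 0 lower, and voom weights gave the same counts. Of all 11804 tested genes, 2787 were at this level in limma. For Cxcl10 the difference was 0.22 (95% interval -0.35 to 0.79) and for Irf7 -0.14 (-1.36 to 1.09).

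These calls rest on 2 libraries a group. Without either DMSO library the rapamycin count was 1, Cxcl10. In SL0101 it was 2 without DMSO replicate 1, 0 without DMSO replicate 2 (1 higher and 6 lower at an unadjusted p under 0.05), 2 without SL0101 replicate 1 and 3 without SL0101 replicate 2. Between the inhibitors it was 3 without rapamycin replicate 1 (B2m, Gbp2 and Zbp1, with Ddx58 lost at an adjusted p of 0.118), 1 without rapamycin replicate 2 (Ddx58) and 0 without either SL0101 library (3 higher and 0 lower at an unadjusted p under 0.05 in both cases). Without the expression trend and robust estimation, 0 members passed in all 3 comparisons, with 10, 9 and 5 at an unadjusted p under 0.05.

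Markers of maturing cells differed between the same libraries. Neutrophil markers summed to 119142 to 163999.7 in DMSO, 65374 to 100391 in rapamycin and 57529.9 to 86281 in SL0101 (2 and 6 of 10 called lower). Monocyte markers summed to 5533 to 6231, 3918 to 4094 and 2973 to 3570.5 (6 and 5 of 8 called lower, 1 higher in each). GMP markers summed to 14436 to 15745, 60994 to 61844 and 27426 to 35212 (7 and 5 of 12 called higher). Dendritic cell markers summed to 67.9 to 93.0, 19.0 to 19.2 and 19.7 to 20.1 (2 and 1 of 4 tested called lower, Cd74 in both, with Cd209a and Clec9a at 0 in all 6 libraries). T or NK cell markers summed to 13.4 to 18.3, 104 to 104 and 24.5 to 43.9 (1 of 3 tested, Nkg7, called higher in each, with Cd3e and Gzma at 0 throughout). None of the 10 neutrophil or 12 GMP markers was at 0 in any Hoxb8 library. The part of these markers in the changes of interferon response genes, and of Irf8, Irf5, Tlr8 and Tlr9 below, was not tested.

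Of 16 tested genes that sense nucleic acid upstream of interferon, 5 were called lower in rapamycin and 8 in SL0101, and 0 higher, beside 6.35% and 5.79% of all tested genes called lower and 5.4% and 5.09% called higher. Tlr9, the endosomal sensor of DNA, was 35.0 ± 10.4 in DMSO, 0.458 ± 0.648 in rapamycin and 4.52 ± 1.03 in SL0101 (SD, n = 2 each; limma adjusted p = 1.22e-05 and 0.00499). Tlr8, a sensor of RNA, was 27.9 ± 4.18, 2.29 ± 3.24 and 1.63 ± 0.165 (adjusted p = 0.00118 and 0.00238). Irf5, a factor activated by these receptors, was 139 ± 19.2, 40.1 ± 10.7 and 40.5 ± 6.97 (log2 fold change -1.79 and -1.76, adjusted p = 8.52e-05 and 1.64e-04). Tbk1, a kinase that activates interferon factors, fell in rapamycin (-0.66, adjusted p = 0.0278). Tlr7 fell in SL0101 (-1.31, adjusted p = 5.75e-04).

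Of 50 tested genes in the list of other interferon-induced genes, 4 fell in rapamycin and 8 in SL0101, and 0 rose. At an unadjusted p under 0.05 there were 12 and 21, beside 2882 and 2823 of all 11804 tested genes. The rapamycin count is near the 6.35% of all tested genes called lower, and the share for SL0101 was 5.79%. Irf8, a factor of monocyte and dendritic cell fate, was 123 ± 3.69 in DMSO, 44.8 ± 22.2 in rapamycin and 41.8 ± 0.941 in SL0101 (SD, n = 2 each; limma adjusted p = 0.00112 and 0.00143). Cd274 (PD-L1) fell in rapamycin (-1.15, adjusted p = 0.0168), as did Psme2 (-0.74) and Slfn2 (-0.70). In SL0101 the largest were Ms4a6b (-2.17, adjusted p = 0.0298), Irgm2 (-1.57, adjusted p = 0.0399), Irf8 and Trim30a (-1.29, adjusted p = 0.00355). Trim30a was higher in rapamycin than in SL0101 by 1.54 (adjusted p = 0.0016), one of 5 genes of this list called higher there. Of 17 receptors, kinases and STAT factors, 3 fell in rapamycin: Ptpn6 (SHP-1), a phosphatase that dampens cytokine signals (-0.77, adjusted p = 3.94e-04), Il10rb (-0.68) and Ifngr2 (-0.64), a chain of the interferon gamma receptor. In SL0101 1 gene of this list, Socs3, rose (1.24, adjusted p = 0.0255).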

How the data were processed

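RNA of 12 GMP libraries and 6 Hoxb8 libraries was analysed. The submitters' processing notes name Cuffnorm, Cufflinks 2.2.1, TopHat2 2.0.10 and BWA, and a genome build was not found in the labels. The table deposited by the authors holds a signal, the fragments of each gene after scaling by 1 factor for each library. In each library 98.9% to 99.1% of values above 0 equalled whole fragments (tolerance 0.01), which gave the depth. None of the 39 genes had a fraction, but 250 other genes did, so edgeR and DESeq2 were not run. The voom alternative used the recovered fragments rounded to whole numbers.

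Groups were taken from titles, because the genotype field of samples titled Tsc2 gives Raptor. The members, gene lists and comparisons were chosen with earlier results of these data known. Log2 of the value plus 1 was analysed with limma 3.58.1 (R 4.3.3), using an expression trend and robust variances, in 1 fit for GMPs and 1 for Hoxb8 cells. Genes with a value of at least 1 in at least 3 GMP or 2 Hoxb8 libraries were tested. Each of 7 comparisons had its p-values adjusted (Benjamini-Hochberg) over all genes tested, with a threshold of 0.05. "Called", "rose" and "fell" mean past that threshold. The fit was also run on simulated data, with changes planted only in genes above a set mean level. The outcome is not given here, and it would not cover members with low levels.

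Members that passed are given with the value in every library, and 2 members of each role with the highest mean over all 18 libraries are given regardless of the test. Of each pathway list, up to 4 genes that passed are named by the size of their change, and H2-K1 and Psmb10 were named in addition. Pseudocounts, filters, scalings, the spread used, a replicate block, voom weights, sex and single libraries were varied. One listed macrophage marker, Adgre1, was not found under that symbol.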

Additional observations from a re-analysis of the deposited data

Results flagged for a closer look

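In 5 of 38 members, 2 higher and 3 lower, the effect of Raptor KO differed from that of Tsc2 KO by the interaction term in limma (adjusted p, Benjamini-Hochberg over 13237 genes). Of all tested genes 5.99% were called higher and 6.44% lower in this test, so the count of members is near the background. The difference in log2 fold change, Raptor line minus Tsc2 line, was -2.00 for Isg20 (adjusted p = 0.0109), -1.41 for Samd9l (adjusted p = 0.0114), -2.50 for Rtp4 (adjusted p = 0.0176), 0.88 for Tap1 (adjusted p = 0.0382) and 1.40 for Ddx58 (adjusted p = 0.0448). Isg20, Samd9l and Rtp4 were lower in Raptor KO and higher in Tsc2 KO than in their own controls, and none of these 3 passed in either knockout alone. Tap1 and Ddx58 passed in Tsc2 KO, but their calls in the interaction held in only 4 and 2 of the 12 fits with 1 library left out. For Rtp4 and Samd9l every Tsc2 fl/fl library lay below every Raptor fl/fl library, so the controls were unequal. Groups of 2 or 3 libraries were too small for a test of single outlying libraries.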

How the results depend on the processing

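No fold change of a called member changed sign under any alternative. The counts of called members moved by more than 1.5 times as follows. In Raptor KO the count was 1, and it was 3 with 5 added in place of 1, 4 with quantile normalization, 6 with only the compared groups in the fit, 3 without both male libraries and 4 with a term for them. Over all genes the first 3 of these fits called 263 higher and 346 lower, 199 and 330, and 546 and 703. Without both male libraries it was 303 and 456, and with a term for them 323 and 515. The main fit called 202 and 320. In Tsc2 KO the count was 6, and it was 2 without trend and robust estimation, 0 with only the compared groups and 3 without the male libraries. Over all genes these fits called 342 higher and 587 lower, 233 and 238, and 569 and 706, against 696 and 942 in the main fit. For the difference between the knockouts the count was 5, and it was 3 without a filter, 2 without trend, 3 without the male libraries and 8 with a term for them. Over all genes these fits called 664 higher and 718 lower, 371 and 343, 691 and 715, and 1077 and 1037. The main fit called 793 and 853. For the controls the count of 1 was 0 without a filter, without trend, with voom weights and without the male libraries. Over all genes these fits called 44 higher and 16 lower, 0 and 4, 24 and 6, and 26 and 11. The main fit called 64 and 16. Without trend 75 genes were called higher and 113 lower in rapamycin, 17 and 80 in SL0101, and 9 and 5 between the inhibitors. In the main fits these were 637 and 749, 601 and 683, and 523 and 524. The count of members without trend was 0 in rapamycin (main count 3), 0 in SL0101 (6) and 0 between the inhibitors (2). The last was 1 with quantile normalization and 1 with only the compared groups. Leaving out 1 library gave 1 to 1 in Raptor KO, 1 to 7 in Tsc2 KO, 2 to 12 for their difference, 0 to 0 for the controls, 1 to 4 in rapamycin, 0 to 3 in SL0101 and 0 to 3 between the inhibitors. The cause was not tested. Same-numbered libraries correlated at r = 0.010 to 0.047 in the Raptor line, -0.032 to 0.245 in the Tsc2 line and 0.005 to 0.046 in Hoxb8 cells, so that no line had every r above 0.1 and pairing is not shown. In the Tsc2 line replicates 1 and 2 had r = 0.217 and 0.245, and both replicate 2 libraries were male. With a replicate block the counts were 5 in Raptor KO, 7 in Tsc2 KO, 11 for the difference, 1 for the controls, 4 in rapamycin, 7 in SL0101 and 3 between the inhibitors. Over all genes the block moved the calls from 202 higher and 320 lower to 438 and 704 in Raptor KO. They went from 696 and 942 to 1105 and 1394 in Tsc2 KO, and from 793 and 853 to 1261 and 1221 for the difference. For the controls they went from 64 and 16 to 19 and 24. In rapamycin, SL0101 and between the inhibitors the block gave 824 and 1033, 869 and 959, and 798 and 893. The planned edgeR and DESeq2 alternatives were not run, because 250 genes held fractional fragments. At a depth of 2.31 to 3.52 M fragments, Ifit3 was too low for a test in both cell systems, and Ifit1, Oasl2, Ifi44 and Iigp1 were in Hoxb8 cells.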
